A study of Saccharomyces cerevisiae with 4 samples.

Results

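The arms of chromosome XIV of *S. cerevisiae* were described as the bins from 20 to 608.7 kb on the left arm and from 648.9 to 764.3 kb on the right arm of genome release R64, which leaves out 20 kb at each end and the pericentromere. The arms held 14082 of the 243150 bins of 50 bp and 18 of the 392 listed origins, of which 16 lie on the left arm and 2 on the right. Origin names and positions came from the list of origins that accompanies the data, whose classes were not used. The list holds only origins at which a peak was called in at least one strain from these same libraries, so an origin silent in *WT* cells can be on it only through a *rif1Δ* peak.

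A yeast chromosome is copied from many origins, each of which has a usual time of firing, early or late, once S-phase kinases act on the helicase complexes waiting there. Rif1, a telomere-associated protein, is known to bring a phosphatase that opposes Dbf4-dependent kinase, and so delays many late origins. The left arm of chromosome XIV is known for an internal cluster of late origins far from both the centromere and the end. BrdU is a thymidine analog that labels nascent DNA, and hydroxyurea (HU) lowers the supply of deoxyribonucleotides, which stalls forks from early origins and triggers the checkpoint that holds late origins back. BrdU signal in HU thus reports firing under checkpoint arrest, and timing itself was not measured in these libraries.

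The groups were *rif1Δ* cells (2 libraries) and *WT* cells (2 libraries), from W303-derived strains that all carry *bar1Δ* and a BrdU-incorporation cassette at *LEU2*, with *RIF1* replaced by KanMx in *rif1Δ* cells. Cells were arrested with 7.5 nM α-factor for 4 h at 23°C and released with 200 µg/mL Pronase into 0.2 M HU and 400 µg/mL BrdU for 45 min. The sample labels give the HU dose without its unit. The deposited profile holds 1 averaged column per strain, so every difference below has no replicate check, no test could be made and the depth of each library is unknown. Over the *RIF1* gene on chromosome II (751356 to 757106), the mean signal was 0.433 in *rif1Δ* cells and 3.09 in *WT* cells over 115 bins.

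Away from its origins the chromosome had low signal in both strains. The arm bins over 5 kb from any listed origin had a mean signal of 3.32 in *rif1Δ* cells and 3.38 in *WT* cells, and they made up 76.2% of the arm bins. The arms carried 3.27% of the signal of the 16 nuclear chromosomes in *rif1Δ* cells and 3.29% in *WT* cells, on 5.83% of their bins.

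Each origin was given the mean of the bins within 500 bp of its midpoint as its signal. The strains were compared as log2((*rif1Δ* + 1)/(*WT* + 1)), where the added 1 makes the ratio of a weak origin smaller than its plain ratio. Of the 18 origins, 9 had a signal at least 2-fold higher in *rif1Δ* than in *WT* cells, against 41.8% of all 392 listed origins. Another 3 were at least 2-fold lower in *rif1Δ* cells, against 8.93% of all listed origins, and 6 lay between these bounds. The median log2 ratio was 0.91 over the arm origins and 0.57 over all listed origins. The share that was higher lies near that of all listed origins. The members nearest to the bounds were ARS1420 (1.40) and, outside it, ARS1414 (0.43) on the higher side, and on the lower side the unnamed origins at 550890 (-1.25) and, just outside, 324551 (-0.98). Of 5911 windows of 1 kb lying at least 10 kb from any listed origin, 2.05% passed the same bound upward and 3.49% downward.

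**Figure D1:**
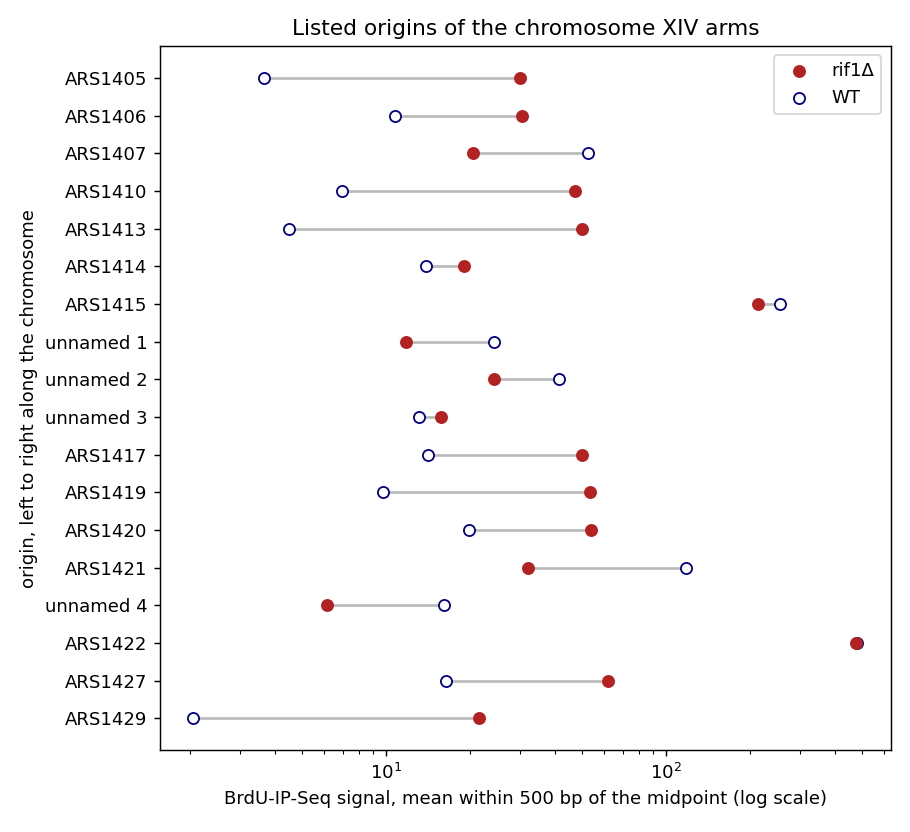
BrdU-IP-Seq signal (log scale) of the 18 listed origins on the arms of chromosome XIV, from left to right along the chromosome, in *rif1Δ* cells (filled) and *WT* cells (open), each point an average of 2 libraries without error bars, with unnamed origins numbered in that order. The 9 origins at least 2-fold higher in *rif1Δ* cells lie between 21.4 and 62.1 in that strain, whereas ARS1415 and ARS1422 stand above 200 in both strains, with the points of ARS1422 on top of each other.

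A background threshold was set at the 99th percentile of the same 1 kb windows, which was 13.7 in *rif1Δ* cells and 13.6 in *WT* cells. By this measure 16 of the 18 arm origins were above background in *rif1Δ* cells, against 90.8% of all listed origins, and 11 were above it in *WT* cells, against 64.0%. Both strains exceeded it at 9 origins, *rif1Δ* cells alone at 7 (against 31.4% of all listed origins) and *WT* cells alone at 2 (against 4.59%). At a stricter threshold of 39.6 in *rif1Δ* cells and 40.6 in *WT* cells, chosen after seeing the data, 8 were above it in *rif1Δ* cells, against 66.8% of all listed origins, and 5 in *WT* cells, against 42.3%. The SD of log2(signal + 1) across the 18 origins was 1.40 in *rif1Δ* cells and 1.93 in *WT* cells. Over all 392 listed origins it was 1.70 in *rif1Δ* cells and 2.26 in *WT* cells, so the narrower spread is not particular to chromosome XIV. Because an origin silent in *WT* cells is listed only through a *rif1Δ* peak, these spreads depend in part on how the list was made.

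The internal late cluster was taken as the stretch from 110 to 300 kb of the left arm, whose bounds fall between listed origins. It held 3 listed origins. ARS1410 (126488 to 126981) overlaps the ends of *TOF1* (YNL273W), which encodes a subunit of the fork protection complex, and *SEC2* (YNL272C), an exchange factor of exocytosis. Its signal was 47.2 in *rif1Δ* cells and 6.97 in *WT* cells, or 6.77 times as high (log2 ratio 2.60). ARS1413 (250259 to 250506) overlaps *MRX7* (YNL211C) and lies 425 bp before *MER1*, a meiotic splicing activator. It had 50.3 in *rif1Δ* cells and 4.49 in *WT* cells, 11.2 times as high (log2 ratio 3.22), which was the largest log2 ratio on these arms. Both origins were below background in *WT* cells and well above it in *rif1Δ* cells. The third member behaved differently. ARS1414 (279875 to 280108), at the end of *CHS1*, which encodes chitin synthase I, had 18.9 in *rif1Δ* cells and 13.8 in *WT* cells (log2 ratio 0.43), just above background in *WT* cells. Low *WT* signal at all 3 origins fits the name of the cluster only as far as HU signal goes. It was not particular to the cluster. The 7 arm origins at or below background in *WT* cells included ARS1405 (3.68), ARS1419 (9.76) and ARS1429 (2.05) outside it.

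Between ARS1410 and ARS1413 lay a gap of 124 kb with no listed origin. Among the 376 gaps between neighboring listed origins of the genome, with a median of 27.1 kb, it ranked 2 by length. Away from the ends of this gap the median bin was 3.25 in *rif1Δ* cells and 3.13 in *WT* cells. The highest signal in it in *rif1Δ* cells was 14.4, centered at 169975 between *RTC4* and *TEX1*, an mRNA export factor. The 1 kb around this bin averaged 13.9 in *rif1Δ* cells and 4.57 in *WT* cells, so a low maximum was present in *rif1Δ* cells where *WT* cells had none. A lower one at 195875, in *ATG2*, averaged 8.88 in *rif1Δ* cells and 3.60 in *WT* cells. A maximum in *SLA2* at 189025 was alike in both, with averages of 9.20 in *rif1Δ* cells and 9.68 in *WT* cells. These maxima lie under the height used to call peaks and were chosen for mention by their values, and no origin name is given to them in the sources used here. The strongest signal of the gap was higher in *WT* cells, which reached 27.0 at 198725, in *NAR1*, where *rif1Δ* cells reached 14.

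**Figure D2:**
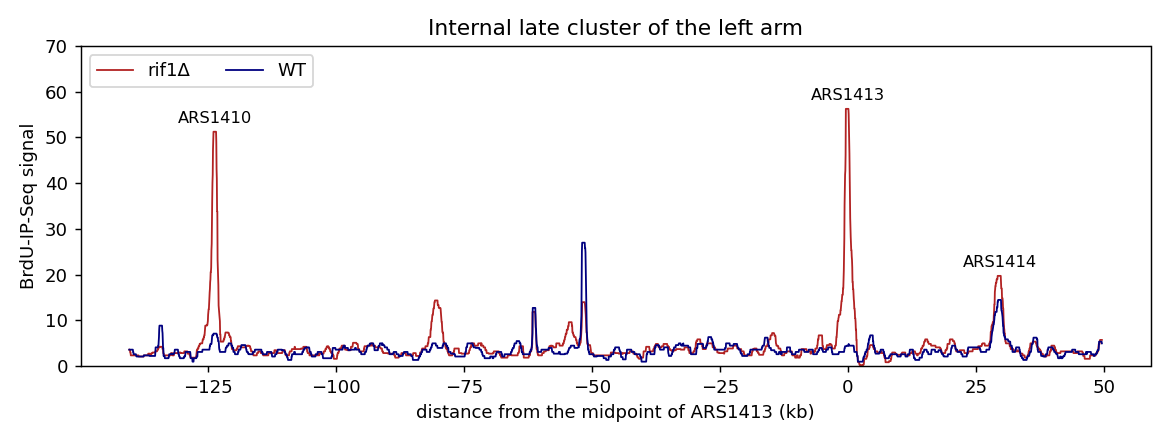
BrdU-IP-Seq signal per 50 bp bin along the stretch of 110 to 300 kb, against distance from the midpoint of ARS1413, in *rif1Δ* cells (red) and *WT* cells (dark blue). ARS1410 reaches 51.3 and ARS1413 reaches 56.3 in *rif1Δ* cells only, ARS1414 reaches 19.8 in *rif1Δ* and 14.5 in *WT* cells, and the peak in the gap reaches 14 in *rif1Δ* and 27.0 in *WT* cells.

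Summed over its bins, the cluster had 1.30 times as much signal in *rif1Δ* as in *WT* cells, with a mean of 4.64 in *rif1Δ* cells and 3.56 in *WT* cells. The remaining arms had 0.901 times as much, with 7.60 in *rif1Δ* cells and 8.43 in *WT* cells. That lower value was not spread evenly. Bins within 5 kb of ARS1415 and ARS1422 had 0.818 times as much signal, and those within 5 kb of ARS1421 had 0.264 times. Over the whole arms, cluster included, the ratio was 1.03 without the bins around ARS1415 and ARS1422. Bins within 5 kb of ARS1410 and ARS1413 made up 75.0% of the summed difference between the strains in the cluster. Within 5 kb of ARS1413 the mean was 11.7 in *rif1Δ* cells and 3.49 in *WT* cells, and within 5 kb of ARS1410 it was 10.9 in *rif1Δ* cells and 3.78 in *WT* cells. Over the cluster bins farther than 5 kb from its listed origins the means were 3.66 in *rif1Δ* cells and 3.42 in *WT* cells. After subtraction of the background median from each strain, the ratio of the cluster was 2.25.

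The other origins with higher signal in *rif1Δ* cells were spread over both arms. On the left, ARS1405 (28467 to 28699) lies between *PFA3*, a palmitoyltransferase gene, and *FIG4*, a phosphoinositide phosphatase gene. It had 30.1 in *rif1Δ* cells and 3.68 in *WT* cells (log2 ratio 2.73), with no *WT* peak. At 28.6 kb from the chromosome end it is the outermost member of the left arm. ARS1406 (61597 to 61894), between *YPT11* and the ribosomal protein gene *RPS19B*, had 30.6 in *rif1Δ* cells and 10.8 in *WT* cells (log2 ratio 1.42). There the *WT* profile had its own maximum of 20 at 59875, in the space between *BXI1* and *YPT11* and 1722 bp from the origin, where *rif1Δ* cells had 11.5. The highest bins of the strains lay 1650 bp apart, and over a mean within 2500 bp the log2 ratio of ARS1406 was 0.56.

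Nearer the centromere, 3 more origins of the left arm were higher in *rif1Δ* cells. ARS1417 (412263 to 412493), before *RPC19*, a subunit shared by RNA polymerases I and III, had 50.3 in *rif1Δ* cells and 14.2 in *WT* cells (log2 ratio 1.76). ARS1419 (449343 to 449588) overlaps the end of *APP1* and precedes *YPT53*, a Rab5-type GTPase gene. It had 53.6 in *rif1Δ* cells and 9.76 in *WT* cells (log2 ratio 2.34). ARS1420 (498987 to 499232) lies between *FKH2* (YNL068C), a forkhead transcription factor gene, and YNL067W-B. It had 53.8 in *rif1Δ* cells and 19.8 in *WT* cells (log2 ratio 1.40), the highest *WT* signal among the 9. These 3 origins lay between 50.3 and 53.8 in *rif1Δ* cells, a narrower range than the 9.76 to 19.8 of *WT* cells. That did not hold for all 9 higher origins, which lay between 21.4 and 62.1 in *rif1Δ* cells and between 2.05 and 19.8 in *WT* cells.

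Both origins of the right arm were higher in *rif1Δ* cells. ARS1427 (691482 to 691727), after *SOL1*, had 62.1 in *rif1Δ* cells and 16.4 in *WT* cells (log2 ratio 1.86). ARS1429 (764001 to 764500), between *BSC5* and the transporter gene *PDR18*, had 21.4 in *rif1Δ* cells and 2.05 in *WT* cells (log2 ratio 2.88), the lowest *WT* signal of the 18. It lies 20.1 kb from the chromosome end, and its signal stops abruptly on that side, where both profiles drop to their lowest values. The 1500 to 2500 bp to its right averaged 0.25 in *rif1Δ* cells and 0.13 in *WT* cells. Its value thus comes from bins at the border of a stretch with hardly any signal.

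The size of the largest ratios depended on the scale. With the mean within 500 bp, no arm origin was 4-fold lower in *rif1Δ* cells (0 of 18, against 1.53% of all listed origins). With a mean within 2500 bp, ARS1421 passed that bound (log2 ratio -2.06). ARS1405, ARS1410, ARS1413, ARS1419 and ARS1429, the 5 origins at least 4-fold higher in *rif1Δ* cells (against 29.1% of all listed origins), had log2 ratios of 1.38 (ARS1429) to 2.06 (ARS1413) with a pseudocount of 10. With a mean within 2500 bp in place of 500 bp, they had 1.70 (ARS1419) to 2.30 (ARS1413), all still higher in *rif1Δ* cells.

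**Figure D3:**
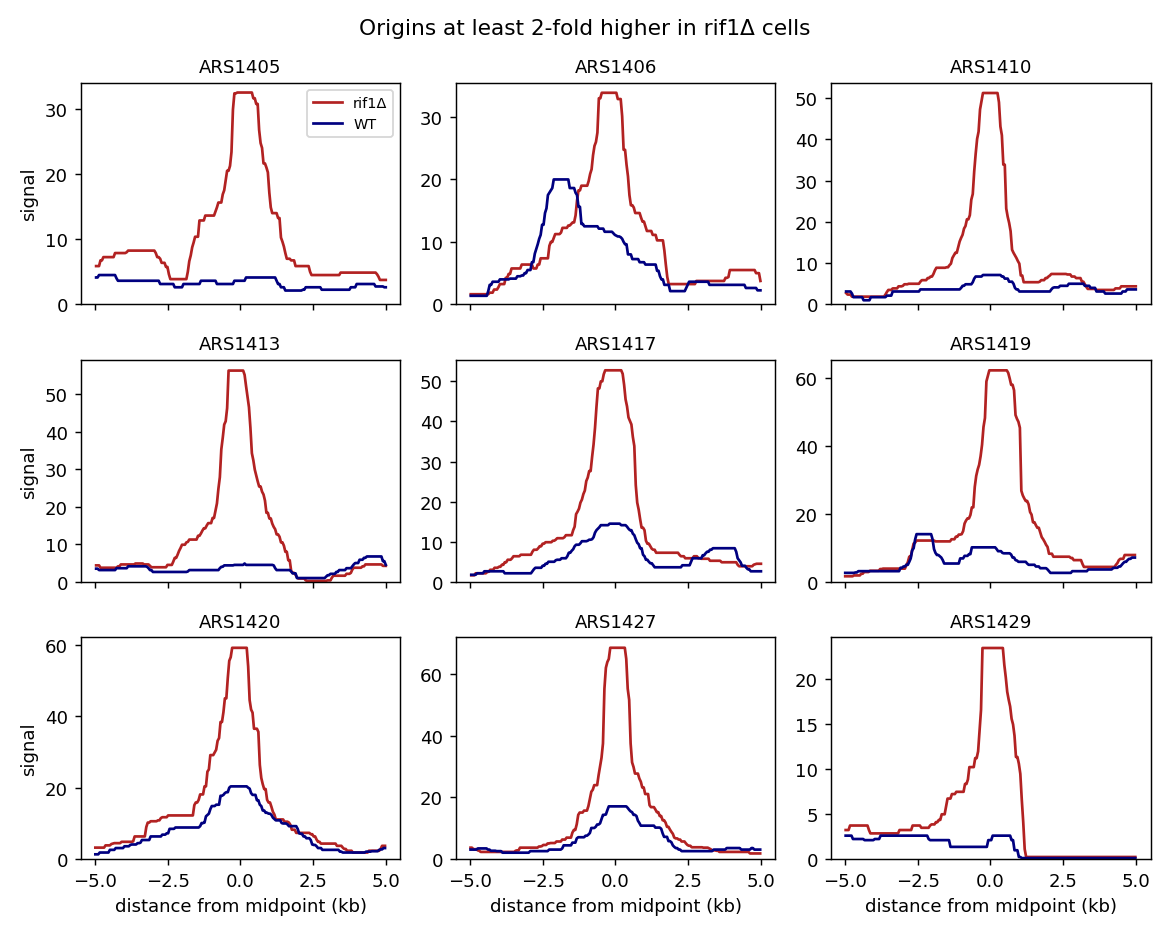
BrdU-IP-Seq signal per 50 bp bin within 5 kb of the midpoints of the 9 origins at least 2-fold higher in *rif1Δ* cells, shown in red, with *WT* cells in dark blue (each panel has its own signal axis from 0). The *rif1Δ* maxima range from 23.5 at ARS1429 to 68.5 at ARS1427, and at ARS1406 the *WT* maximum lies to the left of the origin.

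The 4 origins with a *WT* signal above 50 were lower or about the same in *rif1Δ* cells. They were chosen by the *WT* signal, which is also the denominator of the ratio, and such a choice favors low ratios. Among origins above background in *WT* cells, the median log2 ratio was -0.26 over 11 on chromosome XIV. Over 196 such origins on the other arms it was 0.10. ARS1421 (545966 to 546201), after *YIP3*, had 32.2 in *rif1Δ* cells and 118 in *WT* cells, 3.67-fold lower (log2 ratio -1.84). ARS1407 (89528 to 89802), between the snoRNA gene *SNR40* and *CAF40* of the CCR4-NOT complex, had 20.4 in *rif1Δ* cells and 52.7 in *WT* cells (log2 ratio -1.33). ARS1415 (321917 to 322210), beside the septin-associated *BNI5*, had 214 in *rif1Δ* cells and 256 in *WT* cells (log2 ratio -0.26). ARS1422 (561106 to 561384), close to a tRNA gene, had 477 in *rif1Δ* cells and 482 in *WT* cells (log2 ratio -0.02), by far the strongest origin of the arms in both strains. The midpoints of ARS1421 and ARS1422 are only 15.2 kb apart, so neighbors had quite different ratios. The sources do not say how the strains were set to a common scale. With *rif1Δ* cells scaled to the summed nuclear signal of *WT* cells, the log2 ratio was -1.79 at ARS1421 and 0.04 at ARS1422.

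The 4 unnamed origins had signals of at most 24.2 in *rif1Δ* cells and 41.3 in *WT* cells. The one at 324551 to 325764, over *YNL165W* and *IBD2*, had 11.8 in *rif1Δ* cells and 24.2 in *WT* cells (log2 ratio -0.98), but its midpoint is 3.09 kb from that of ARS1415 and neither profile had a peak of its own there. The one at 342963 to 344117, over *CUZ1* and *YCK2*, a casein kinase gene, had 24.2 in *rif1Δ* cells and 41.3 in *WT* cells (log2 ratio -0.75). At 358745 to 359455, over the end of *MEP2*, an ammonium permease gene, and before *AAH1*, an adenine deaminase gene, the signal was 15.7 in *rif1Δ* cells and 13.1 in *WT* cells (log2 ratio 0.25). The last, an interval of 10001 bp from 550890 to 560890 that spans *BDP1* and *IDH1*, had 6.16 in *rif1Δ* cells and 16.1 in *WT* cells at its midpoint (log2 ratio -1.25). Its highest bins, 442 in *rif1Δ* cells and 486 in *WT* cells, lie at its right end, 215 bp before ARS1422, so its midpoint value describes the space between ARS1421 and ARS1422. Without it, the median log2 ratio of the arm origins was 1.40.

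**Figure D4:**
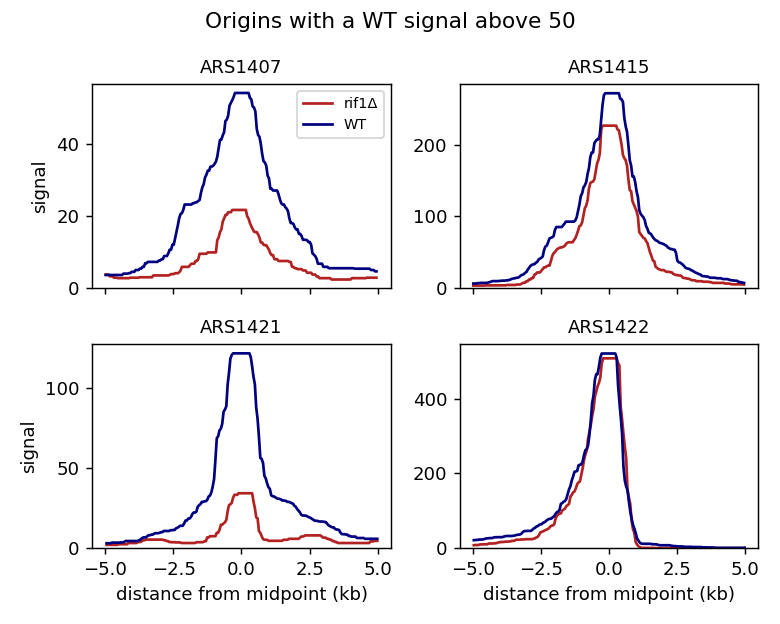
BrdU-IP-Seq signal per 50 bp bin within 5 kb of the midpoints of ARS1407, ARS1415, ARS1421 and ARS1422, the origins with a *WT* signal above 50, in *rif1Δ* cells (red) and *WT* cells (dark blue), each panel with its own signal axis from 0. The *rif1Δ* maximum is 34.3 against 121 in *WT* cells at ARS1421 and 21.6 against 54.0 in *WT* cells at ARS1407, and the profiles nearly coincide at the top of ARS1422.

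Peaks were then taken from the profiles without the list, as bins of at least 20 that no bin within 2.5 kb exceeded. There were 14 peaks in *rif1Δ* cells and 10 in *WT* cells. The strains shared 8 of them within 2.5 kb, *rif1Δ* cells alone had 6 and *WT* cells alone had 2. Within 1 kb they shared 6. The peaks near ARS1406 lay 1650 bp apart, and those at 662225 (*rif1Δ*) and 663825 (*WT*) lay 1600 bp apart, so these pairs may not be the same peak. On the arms of all 16 chromosomes, 39.4% of 302 *rif1Δ* peaks had no *WT* peak within that distance and 17.2% of 221 *WT* peaks had no *rif1Δ* peak, so the shares on chromosome XIV were near those of the genome. The 6 peaks of *rif1Δ* cells alone were those of ARS1405, ARS1410, ARS1413, ARS1417, ARS1419 and ARS1427, with heights of 32.5 to 68.5 where *WT* cells had 3.63 to 17.1. ARS1429 is not counted, because the center of its peak falls just outside the arm. At a height of at least 40 there were 8 peaks in *rif1Δ* cells, 5 in *WT* cells and 2 in both, and at least 10 gave 21 in *rif1Δ* cells, 19 in *WT* cells and 15 in both.

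Among the peaks, 3 places lay 6008 bp or more from any listed origin. On the left arm, *WT* cells reached 27.0 at 198725, in *NAR1*, an iron-sulfur protein assembly gene, where *rif1Δ* cells reached 14. They reached 27.9 at 350125, in *ALF1*, a tubulin folding gene, where *rif1Δ* cells had 16.4. On the right arm, *rif1Δ* cells reached 29.5 at 662225, between *ACC1* and *TIM23*, where *WT* cells had 22.3, and *WT* cells reached 23.9 at 663825, between *TIM23* and *RCF2*, where *rif1Δ* cells had 7.50. These peaks were narrow. Their width at 50% of the height was 650 bp at 662225 in *rif1Δ* cells, and 700 to 950 bp at the others in *WT* cells. The listed peaks were 1000 to 1900 bp wide in *rif1Δ* cells and 1400 to 2950 bp wide in *WT* cells.

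The peaks that both strains had were narrower in *rif1Δ* cells. The median width at 50% of the height over the 8 shared peaks was 1500 bp in *rif1Δ* cells and 1775 bp in *WT* cells, and 7 of the 8 were narrower in *rif1Δ* cells. At 25% of the height the medians were 2950 bp in *rif1Δ* cells and 3700 bp in *WT* cells, with all 8 narrower in *rif1Δ* cells. Over the 6 peaks shared within 1 kb the medians were the same, with 5 narrower in *rif1Δ* cells at 50% and 6 at 25%. Widths on the other chromosomes were not compared, so whether the narrowing is particular to chromosome XIV was not tested. No baseline was subtracted. For low *WT* peaks such as ARS1406 (4650 bp at 25%) and ARS1420 (5850 bp), the 25% level comes near the background median of 3.11, so these widths may partly follow background. At ARS1407 the width at 50% was 1900 bp in *rif1Δ* cells and 2800 bp in *WT* cells, and at ARS1421 it was 1200 bp in *rif1Δ* cells and 1600 bp in *WT* cells. ARS1422 was the exception at 50% of the height, with 1450 bp in *rif1Δ* cells and 1400 bp in *WT* cells. Height differed as well, since 5 of the 8 were lower in *rif1Δ* cells, and its part in the widths was not tested. The 2 shared peaks of at least 50 in both strains had a median of 1625 bp in *rif1Δ* cells and 1675 bp in *WT* cells. All widths were read from profiles that were median-smoothed over 1 kb and smoothed a further time after averaging.

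The flanks of the strong origins were also read at fixed distances. At 1500 to 2500 bp left of ARS1415 the mean signal was 45.0 in *rif1Δ* cells and 73.7 in *WT* cells, and on its right it was 27.5 in *rif1Δ* cells and 61.7 in *WT* cells, although the origin itself differed by a log2 ratio of only -0.26. To the left of ARS1422 the same distance gave 75.4 in *rif1Δ* cells and 95.5 in *WT* cells. To its right it gave 0.45 in *rif1Δ* cells and 8.33 in *WT* cells, at the start of 6731 bp without an annotated gene, and farther right, at 2500 to 5000 bp, 0.25 in *rif1Δ* cells and 2.26 in *WT* cells. The values of *rif1Δ* cells lie below the background median of 3.18 in that strain and near those over the deleted *RIF1* gene. The right flank of ARS1422 could thus not be compared beyond 1500 bp. At 500 to 1500 bp it had 71.7 in *rif1Δ* cells and 66.2 in *WT* cells, whereas the left flank had 230 in *rif1Δ* cells and 258 in *WT* cells. Within 500 bp of the midpoint of ARS1422 both sides were alike, with 478 on the left and 475 on the right in *rif1Δ* cells. *WT* cells had 505 on the left and 459.9 on the right. Around ARS1421, the signal at 500 to 1500 bp was 9.98 on the left and 6.9 on the right in *rif1Δ* cells, against 55.4 on the left and 44.5 on the right in *WT* cells.

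Along the arms in windows of 20 kb, 3 of 35 windows had at least 2 times as much signal in *rif1Δ* cells, against 11.6% of 541 such windows on the arms of all 16 chromosomes, and 2 had at most 0.5 times as much, against 2.96%. The 3 hold ARS1405 (2.25 times), ARS1410 (2.04 times) and ARS1413 (2.27 times), and the 2 hold ARS1407 (0.424 times) and ARS1421 (0.451 times). Across the 18 origins, distance from the centromere and log2 ratio had a Spearman's rho of 0.21 and a Pearson's r of 0.21, given as a description because all points come from the same pair of averaged profiles.

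**Figure D5:**
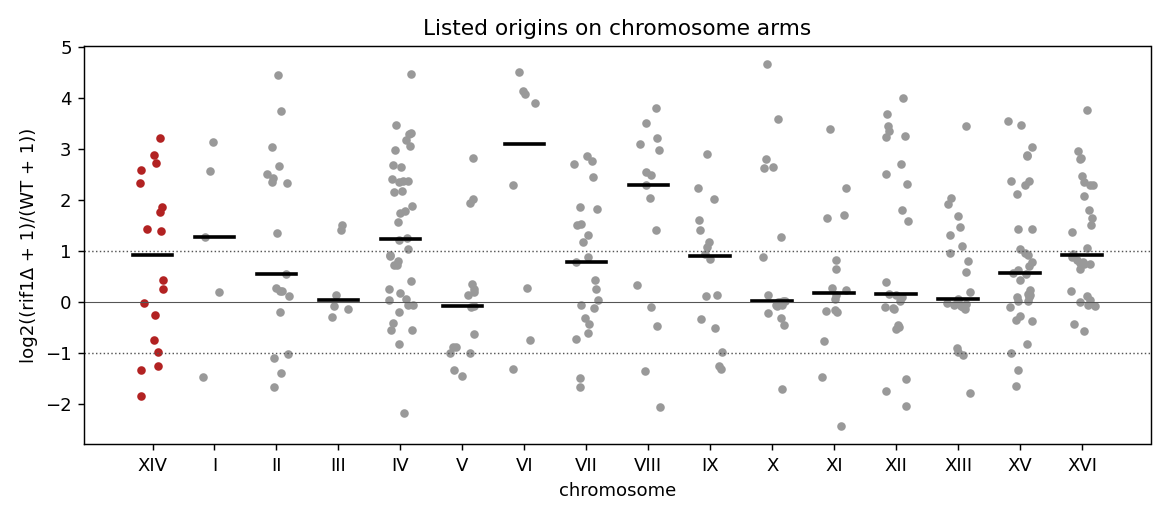
Log2 ratio of *rif1Δ* over *WT* signal (pseudocount 1) for each listed origin on the arms of chromosome XIV (red, left) and of the other 15 chromosomes (gray), with black bars at the medians and dotted lines at 2-fold. The chromosome XIV median is 0.91 and ranks 5 of 16.

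Compared with the 296 listed origins on the arms of the other 15 chromosomes, the origins of chromosome XIV were weaker in both strains. Their median signal was 31.4 in *rif1Δ* cells, the lowest of the 16 chromosomes, and 15.1 in *WT* cells, where only chromosome II was lower. Over the other arms the medians were 68.0 in *rif1Δ* cells and 27.7 in *WT* cells. A signal of at least 100 was found on chromosome XIV at 2 origins in *rif1Δ* cells and 3 in *WT* cells, against 38.2% of the other arm origins in *rif1Δ* cells and 28.7% in *WT* cells. Of the origins at or below background in *WT* cells, the 7 on chromosome XIV had a mean of 35.5 in *rif1Δ* cells and 7.26 in *WT* cells, and the 100 on the other arms had 46.7 in *rif1Δ* cells and 6.81 in *WT* cells. Their median log2 ratios were 2.60 on chromosome XIV and 2.39 elsewhere. All 7 exceeded background in *rif1Δ* cells, as did 89 of the 100, which follows in part from how the list was made. No test of these differences between chromosomes was made.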

How the data were processed

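BrdU-IP-Seq was used from 4 libraries, 2 of *rif1Δ* and 2 of *WT* cells. The authors split barcodes, aligned paired reads to R64 with Bowtie2, binned them, and median-smoothed and quantile-normalized the bins between replicates. They then averaged the 2 replicates and smoothed the average a further time. These smoothed coverage values are the deposited signal, with a single column for each strain. Depth per library is not given in the sources used here. Smoothing lowers narrow peaks and joins close origins.

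Origin signal, log2 ratio (pseudocount 1), peaks (height 20, highest bin within 2.5 kb) and widths were computed with Python 3.11.15, numpy 2.4.6 and pandas 2.3.3 and tested on simulated data. Genes came from the R64 gene table. Every listed arm origin and every unlisted peak of at least 20 was named. The members and lists were chosen with earlier results of these data known. Windows, pseudocounts, scalings, thresholds and cluster bounds were varied. No genome sequence was used, so origin sequences and the ARS consensus were not analysed here.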

Additional observations from a re-analysis of the deposited data

How the results depend on the processing

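No paired analysis was possible because the libraries of a strain are averaged in the deposited profile, which also prevents leaving one out. The search for the ARS consensus was not run. The direction of the median log2 ratio and of both summed-signal ratios was the same under all alternatives, and the median ranged from 0.43 with a mean within 2500 bp to 1.40 without the longest interval. At the 2-fold bound, 7 origins were higher in *rif1Δ* cells with a mean within 2500 bp, where ARS1406 (0.56) and ARS1420 (0.89) fell short, and 8 with a pseudocount of 10, where ARS1406 (0.96) did. Between 2 and 4 were lower, as the origin at 550890 fell short with a mean within 2500 bp (-0.95) and a pseudocount of 10 (-0.69), and that at 324551 passed with 4 alternatives (-1.02 to -1.34). At other bounds with the mean within 500 bp, 5 were at least 4-fold higher and 0 at least 4-fold lower, and 5 at least 1.5-fold lower. ARS1421 passed the 4-fold bound with a mean within 2500 bp (-2.06). Peaks of at least 40 numbered 8 in *rif1Δ* cells, 5 in *WT* cells and 2 in both, and peaks of at least 10 numbered 19 in *WT* cells and 15 in both. With a stricter background threshold chosen after seeing the data, 39.6 in *rif1Δ* cells and 40.6 in *WT* cells, 8 origins were above it in *rif1Δ* cells and 5 in *WT* cells. The cluster ratio was 2.25 with the background median subtracted, and widths at 25% of the height were 2950 bp in *rif1Δ* cells and 3700 bp in *WT* cells. Of 144 log2 ratios of single origins under the alternatives, 15 moved by over 1.5 times, with a mean within 2500 bp, a pseudocount of 10 or background subtraction, and no origin past 2-fold changed sign. ARS1422 turned from -0.02 to 0.04 with equal summed nuclear signal and to 0.03 with equal nuclear medians.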

Other observations

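Some low maxima outside the listed origins, chosen for mention by their values, were higher in 1 strain. On the right arm, at 738875 between *MNT4* and the ferric reductase gene *FRE4*, the 1 kb mean was 13.4 in *rif1Δ* cells and 3.63 in *WT* cells. At 713600, in *MSO1*, it was 9.14 in *rif1Δ* cells and 3.28 in *WT* cells. In the other direction, the mean at 440975, beside *PHO23*, was 5.74 in *rif1Δ* cells and 12.9 in *WT* cells, and at 519075, beside *POR1*, it was 3.69 in *rif1Δ* cells and 10.5 in *WT* cells. At 652725, in *YNR014W*, it was 5.22 in *rif1Δ* cells and 13.1 in *WT* cells. All 5 lay under the background threshold in both strains.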
